A study of Mus musculus with 6 samples.

Results

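The genes described are 10 that neutrophils of the mouse are known for: the calprotectin genes S100a8 and S100a9, the stefin A cluster genes Stfa1, Stfa3, BC100530 and Gm5483, and the granule protein genes Ngp, Camp, Lcn2 and Ltf. They were taken by symbol from a table of 14882 genes, and all 10 had a row. They had been picked because their values set single libraries apart, so their differences between the groups are a description, with no test. Expression was measured by RNA sequencing of the hypertrophic zone of the growth plate at the upper end of the tibia, the layer of enlarged chondrocytes that borders the marrow and the newly forming bone. The libraries were 3 from Adamts17-/- mice, which lack a secreted metalloprotease, and 3 from wild-type (WT) littermates. Mice of both genotypes were on the C57BL/6 strain, were 7 days old and had no treatment named in the labels. The sources used here give neither the part of Adamts17 that was removed nor whether a library stands for 1 animal, so the spread shown is that between libraries.

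Neutrophils are made in the marrow from precursors that load granules in sequence, azurophil granules first, then specific granules, then gelatinase granules. S100a8 and S100a9 encode small calcium-binding proteins that join as calprotectin, a protein that binds zinc and manganese away from microbes and fills much of the neutrophil cytoplasm. Stefins are inhibitors of cysteine cathepsins, and the mouse carries a cluster of stefin A copies that myeloid cells transcribe. Ngp, Camp, Lcn2 and Ltf encode proteins of the specific granules, made at the middle stages of maturation.

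The stefin copies are shown first, because the likeness of their sequences limits how far their values can be told apart. The lines give 80 coding bases of each of the 4 genes in the transcript direction, from the reference transcripts of GRCm38, beginning at a run of 19 bases that all 4 share. They are coding bases 33 to 112 of Stfa1, BC100530 and Gm5483 and coding bases 51 to 130 of Stfa3. Capitals mark the 17 positions at which the 4 are not all alike.
Stfa1: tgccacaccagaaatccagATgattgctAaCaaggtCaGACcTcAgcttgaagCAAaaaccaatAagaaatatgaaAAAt
BC100530: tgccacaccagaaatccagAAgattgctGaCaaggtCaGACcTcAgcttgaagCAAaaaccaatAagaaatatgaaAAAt
Stfa3: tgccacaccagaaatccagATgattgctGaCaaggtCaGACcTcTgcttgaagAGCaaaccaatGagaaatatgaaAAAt
Gm5483: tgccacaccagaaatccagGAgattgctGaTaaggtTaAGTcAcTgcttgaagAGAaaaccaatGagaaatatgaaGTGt
In this window BC100530 differed from Stfa1 at 2 positions, Stfa3 at 6 and Gm5483 at 16. Over whole coding sequences, Stfa1 and BC100530 were 97.9% identical, and the 6 pairs of these 4 genes ran from 78.3% to 97.9%. Of all windows of 50 bases in the transcript, 26.9% of those of Stfa1, 33.5% of those of BC100530 and 35.6% of those of Gm5483 also occurred in transcripts of other genes, and none of those of Stfa3. The other genes were Stfa1 and BC100530 for each other, BC117090 for both, Csta1 for BC100530, and 2010005H15Rik for Gm5483. The sources used here do not say how reads with several positions were counted, so the split of reads between Stfa1, BC100530 and Gm5483 and their copies is uncertain. S100a8, S100a9, Ngp, Camp, Lcn2 and Ltf shared no such window with another gene.

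Promoters of 4 of the genes are shown because S100a8 and S100a9, Stfa1, and Ngp stand for the 3 groups. Each runs from 250 bases before the annotated start to 50 bases after it, 5′ to 3′ on the strand of the gene, from RefSeq on GRCm38.p6. S100a8 is from chr3:90668821-90669120 on the plus strand, S100a9 from chr3:90695672-90695971 on the minus strand, Stfa1 from chr16:36276898-36277197 on the plus strand and Ngp from chr9:110419558-110419857 on the plus strand. Capitals mark matches, on either strand, to the C/EBP motif TTNNGCAA, the PU.1 motif GAGGAAGT and the TATA box letters TATAAA.
S100a8: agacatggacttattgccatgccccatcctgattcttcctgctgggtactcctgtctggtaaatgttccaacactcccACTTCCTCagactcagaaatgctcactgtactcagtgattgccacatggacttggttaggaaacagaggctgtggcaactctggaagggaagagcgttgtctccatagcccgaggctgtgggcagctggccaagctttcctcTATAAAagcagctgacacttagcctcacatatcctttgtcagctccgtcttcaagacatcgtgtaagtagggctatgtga
S100a9: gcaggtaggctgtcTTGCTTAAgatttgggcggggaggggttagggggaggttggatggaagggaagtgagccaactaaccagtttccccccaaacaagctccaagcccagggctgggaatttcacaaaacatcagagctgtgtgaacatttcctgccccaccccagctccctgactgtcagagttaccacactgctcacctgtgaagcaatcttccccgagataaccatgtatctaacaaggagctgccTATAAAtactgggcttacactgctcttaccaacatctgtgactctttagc
Stfa1: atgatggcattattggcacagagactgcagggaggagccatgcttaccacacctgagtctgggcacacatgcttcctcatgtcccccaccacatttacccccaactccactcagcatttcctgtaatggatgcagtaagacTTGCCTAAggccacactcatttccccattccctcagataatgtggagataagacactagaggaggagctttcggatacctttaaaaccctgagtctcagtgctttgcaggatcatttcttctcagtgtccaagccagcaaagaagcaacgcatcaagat
Ngp: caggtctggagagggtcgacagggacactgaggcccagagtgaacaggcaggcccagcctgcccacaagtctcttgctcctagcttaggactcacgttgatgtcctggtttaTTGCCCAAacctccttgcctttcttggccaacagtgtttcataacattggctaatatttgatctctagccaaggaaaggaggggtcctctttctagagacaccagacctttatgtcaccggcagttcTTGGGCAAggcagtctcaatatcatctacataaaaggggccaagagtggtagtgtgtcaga
C/EBP factors and PU.1 are the transcription factors best known for driving granulocyte genes. All 10 genes had a promoter in RefSeq, BC100530 under the name Cstdc5 and Gm5483 under the name Cstdc4. Matches to the C/EBP letters occurred in 6 of the 10 promoters (S100a9, Stfa1, BC100530, Ngp, Lcn2 and Ltf), against 10.8% of 32851 RefSeq promoters of the same length. The promoters of Stfa1 and BC100530 were 83.8% identical, so those 2 matches are not separate cases. The PU.1 letters occurred in S100a8 alone among the 10, against 3.20% of all promoters. TATAAA occurred in S100a8, 30 bases before the start, and in S100a9, at the start itself, against 13.6% of all promoters. No match overlapped a match to another of these motifs.

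The libraries were shallow and unequal. The deposited values were read as RPKM, reads per kilobase of transcript scaled to library size, and the values of each library fell on steps from which read equivalents could be counted. Those on all genes came to 882809, 2688295 and 595989 in Adamts17-/- replicates 1, 2 and 3, and to 1662637, 722119 and 899162 in WT replicates 1, 2 and 3. The number of genes listed at 0 was 2280, 2112 and 3153 in Adamts17-/- and 391, 2476 and 3108 in WT. Among the 4179 genes that averaged 50 or more read equivalents, 1689 (40.4%) had 1 or none in at least 1 library. Such an average can rest on 1 high library, so this share does not tell failed measurement from true absence. A value listed at 0 can be either. Adamts17 itself came to 1.25 read equivalents summed over Adamts17-/- and 6.49 over WT, too few to check the labels. Col10a1, the collagen that defines hypertrophic cartilage, was present in each library, at 1437 to 4151 RPKM in Adamts17-/- and 2218 to 13347 RPKM in WT.

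S100a8, the calprotectin light chain, was at 358, 20184 and 84.0 RPKM in Adamts17-/- replicates 1, 2 and 3, and at 597, 71.4 and 14.9 RPKM in WT replicates 1, 2 and 3. Adamts17-/- replicate 2 stood above the other libraries by 33.8 times, the next highest was WT replicate 1, and the ranges of the groups overlapped. The counts behind these values were 144, 16600 and 21 reads in Adamts17-/-, and 669, 22 and 5 reads in WT. With exact Poisson 95% intervals, which cover counting error alone, S100a8 lay between 19878 and 20494 RPKM in Adamts17-/- replicate 2 and between 553 and 644 RPKM in WT replicate 1. The intervals of Adamts17-/- replicate 3 (52.0 to 128 RPKM) and WT replicate 2 (44.8 to 108 RPKM) overlapped, so that pair was not told apart at this depth. In bulk samples such as these, fewer cells of a type and less RNA per cell cannot be told apart. S100a8 was the only one of the 10 genes with a value of at least 1 RPKM in each library.

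S100a9, the other chain of calprotectin, was at 1653, 27265 and 0 RPKM in Adamts17-/- replicates 1, 2 and 3, and at 757, 114 and 0 RPKM in WT replicates 1, 2 and 3. It was listed at 0 in 1 library of each genotype, although S100a8 had reads in both. In Adamts17-/- replicate 2 it ranked 6th of all genes in the table and S100a8 ranked 8th. The ratio of S100a9 to S100a8 in RPKM was 4.62 and 1.35 in Adamts17-/- replicates 1 and 2, and 1.27 and 1.60 in WT replicates 1 and 2. Adamts17-/- replicate 1 thus held more S100a9 and less S100a8 than WT replicate 1. The 2 genes lie near each other on chromosome 3, S100a8 at 90669071 to 90670034 and S100a9 at 90692630 to 90695721 in the coordinates of the table. Their coding sequences were 49.6% identical in an alignment with gaps. Promoters of Stfa1 and Ngp, from different groups of genes, reached 50.6% when aligned the same way, so the 49.6% shows no likeness by itself.

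**Figure D1:**
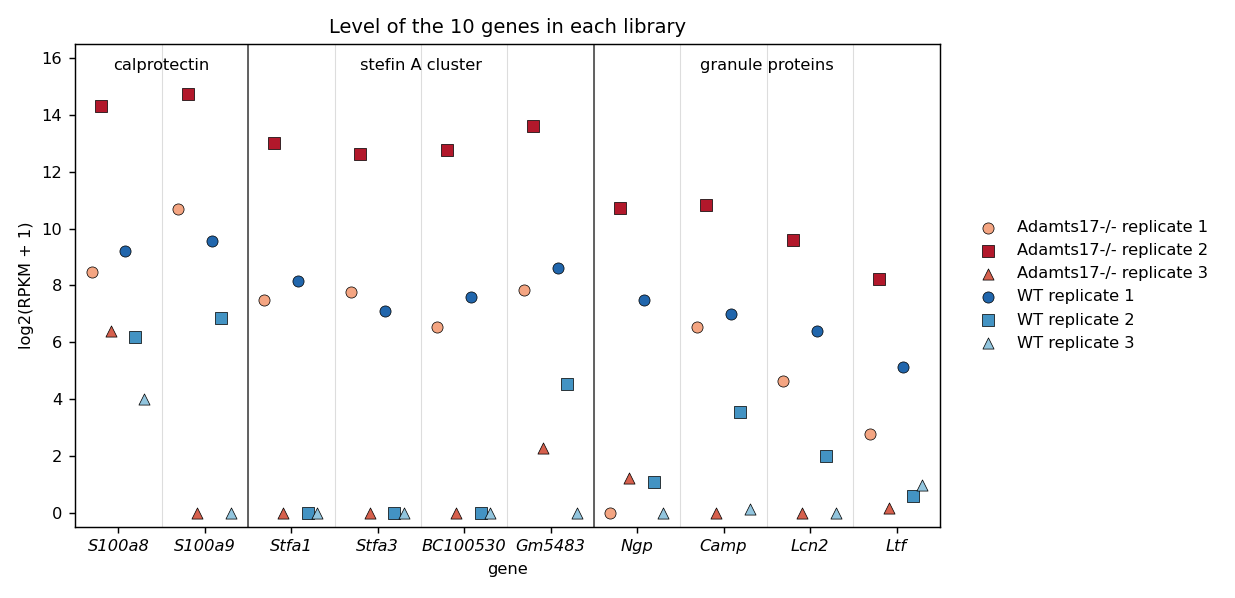
Level of each of the 10 genes, as log2(RPKM + 1), in the 3 Adamts17-/- libraries (reds) and the 3 WT libraries (blues), 1 point per library. Adamts17-/- replicate 2 is the highest point for all 10 genes, from 8.74 times (Ltf) to 36.4 times (BC100530) the next highest library on the RPKM scale, and points at 0 are values listed at 0.

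Gm5483, an inhibitor of the stefin A type by its family, was the highest of the 4 stefins. It was at 227, 12407 and 3.80 RPKM in Adamts17-/- replicates 1, 2 and 3, and at 392, 21.9 and 0 RPKM in WT replicates 1, 2 and 3. The value in Adamts17-/- replicate 3 is that of 1 read. Stfa1, stefin A1, was at 179, 8313 and 0 RPKM in Adamts17-/- and at 281, 0 and 0 RPKM in WT. BC100530, the near copy of Stfa1, was at 92.7, 6902 and 0 RPKM in Adamts17-/- and at 190, 0 and 0 RPKM in WT. Both had values in the same 3 libraries, in the same order, with Adamts17-/- replicate 2 far above WT replicate 1 and WT replicate 1 above Adamts17-/- replicate 1. Stfa3, stefin A3, was at 217, 6374 and 0 RPKM in Adamts17-/- and at 136, 0 and 0 RPKM in WT. Stfa3 was again listed at 0 in the other 3 libraries, but here Adamts17-/- replicate 1 was above WT replicate 1.

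The stefins were set against S100a8 within each library, which takes out the difference in level. Gm5483 came to 63.6% and 61.5% of the S100a8 RPKM in Adamts17-/- replicates 1 and 2, and to 65.7% in WT replicate 1. Stfa1 came to 50.1% and 41.2% in those Adamts17-/- libraries and to 47.0% in WT replicate 1. Stfa3 varied more, at 60.8% and 31.6% in Adamts17-/- replicates 1 and 2 and 22.8% in WT replicate 1. In WT replicate 2, where S100a8 rested on 22 reads, Gm5483 came to 30.6% and the other 3 stefins were listed at 0. In that library 1 read was worth 3.25 RPKM of S100a8 and 3.05 RPKM of Stfa1.

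The cluster on chromosome 16 holds 11 genes of the table from Csta1 at 36119946 to Stfa3 at 36450537, over 330.6 kb between gene starts. The other genes of the cluster were chosen by position, after their values were seen. Stfa2, stefin A2, was at 69.0, 2659 and 0 RPKM in Adamts17-/- replicates 1, 2 and 3, and at 61.2, 0 and 0 RPKM in WT replicates 1, 2 and 3. Stfa2l1, BC117090, Gm5416 and 2010005H15Rik were also highest in Adamts17-/- replicate 2, by 50.7, 44.1, 36.0 and 29.9 times the next highest library. The coding sequences of Stfa2 and Stfa2l1 were 96.4% identical. Of the windows of 50 bases, 15.9% in Stfa2, 24.6% in Stfa2l1, 33.7% in BC117090 and 22.0% in 2010005H15Rik also occurred in other genes. BC117090 shared them with Stfa1 and BC100530, and 2010005H15Rik with Gm5483. The values of these copies may thus not be independent. The pattern was not that of every gene in the stretch. Csta1 was at 5.03, 0.175 and 49.0 RPKM in Adamts17-/- replicates 1, 2 and 3, and at 0.128, 0.163 and 0 RPKM in WT replicates 1, 2 and 3. Gm6815 was at 3.06, 0.0210 and 135 RPKM in Adamts17-/- and at 34.7, 43.3 and 28.6 RPKM in WT. Both were nearly absent from the library in which their 9 neighbours were highest.

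**Figure D2:**
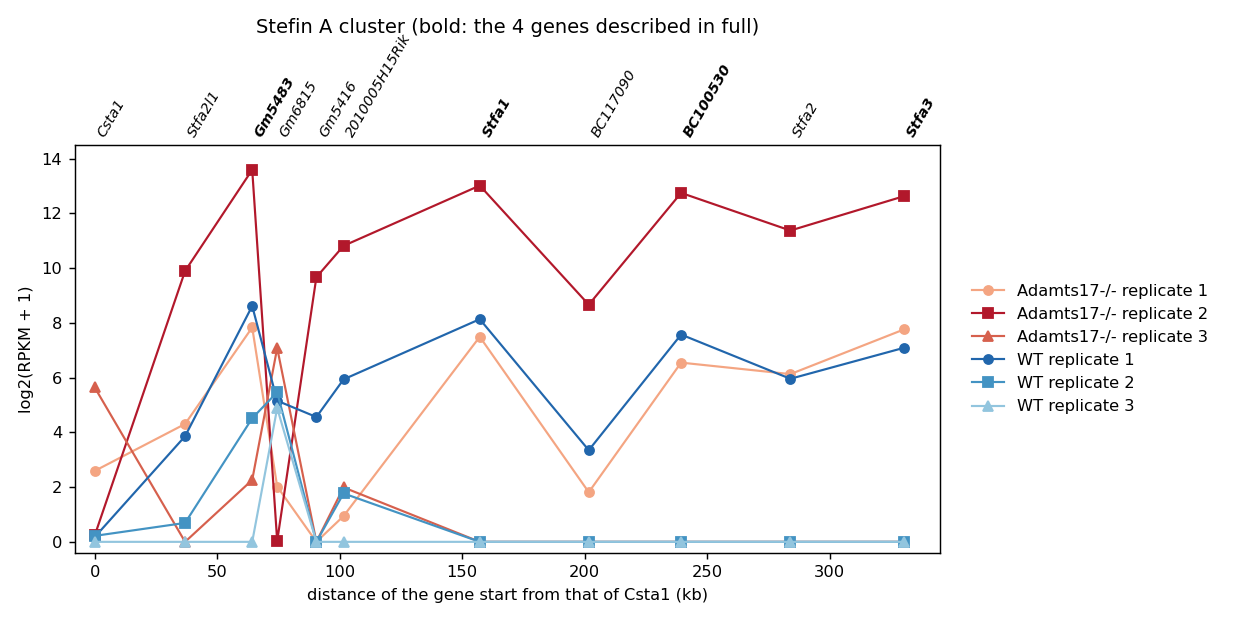
Level, as log2(RPKM + 1), of the 11 genes of the stefin A cluster by distance of the gene start from that of Csta1 in kilobases, with 1 line per library (Adamts17-/- in reds, WT in blues). Adamts17-/- replicate 2 runs above the other libraries at 9 genes and near 0 at Csta1 and Gm6815.

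Camp, the precursor of the antimicrobial peptide cathelicidin, was at 92.6, 1813 and 0 RPKM in Adamts17-/- replicates 1, 2 and 3, and at 126, 10.7 and 0.0975 RPKM in WT replicates 1, 2 and 3. Ngp, a granule protein related to the cystatins and cathelicidins, was at 0, 1710 and 1.35 RPKM in Adamts17-/- and at 179, 1.10 and 0 RPKM in WT. Ngp went apart from the rest in 1 library, since Adamts17-/- replicate 1 listed it at 0 while the other 9 genes had values there. A single Ngp read was worth 0.838 RPKM in that library, and WT replicate 1 held 595 Ngp reads. Ngp and Camp both lie on chromosome 9, and their coding sequences were 50.3% identical in an alignment with gaps. Promoters of Stfa1 and Ngp, from different groups of genes, reached 50.6% when aligned the same way. The 50.3% thus shows no likeness by itself.

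Lcn2, which binds the siderophores by which bacteria take up iron, was at 24.0, 781 and 0 RPKM in Adamts17-/- replicates 1, 2 and 3, and at 82.9, 2.98 and 0 RPKM in WT replicates 1, 2 and 3. Ltf, the iron-binding lactoferrin, was at 5.74, 300 and 0.132 RPKM in Adamts17-/- and at 34.3, 0.50 and 0.964 RPKM in WT. For both, WT replicate 1 was above Adamts17-/- replicate 1 and below Adamts17-/- replicate 2, and the groups overlapped. The values of Ltf outside these 3 libraries rested on 0.231 read equivalents in Adamts17-/- replicate 3 and on 1.08 and 2.26 in WT replicates 2 and 3.

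The 3 libraries with most of this RNA differed in its make-up. The 10 genes summed to 2850, 86047 and 89.3 RPKM in Adamts17-/- replicates 1, 2 and 3, and to 2775, 223 and 16 RPKM in WT replicates 1, 2 and 3. They took 0.163%, 3.20% and 0.00390% of the read equivalents in Adamts17-/-, and 0.257%, 0.0118% and 0.000813% in WT. Adamts17-/- replicate 1 and WT replicate 1 were thus almost alike in the sum. Granule proteins made up 4.29% and 5.35% of the sum in Adamts17-/- replicates 1 and 2, and 15.2% in WT replicate 1. Calprotectin made up 70.6% and 55.1% in those Adamts17-/- libraries and 48.8% in WT replicate 1. The ratio of WT replicate 1 to Adamts17-/- replicate 1, which puts WT on top, ran from 0.458 for S100a9 and 0.625 for Stfa3 to 3.46 for Lcn2 and 5.97 for Ltf over the 9 genes with a value in both. Ngp, with 595 reads in WT replicate 1 and listed at 0 in Adamts17-/- replicate 1, has no such ratio. Adamts17-/- replicate 2 stood above WT replicate 1 by 8.74 to 14.4 times for the granule genes and by 29.6 to 46.9 times for the other 6. With 1 library each, these differences in make-up have no replicate check.

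**Figure D3:**
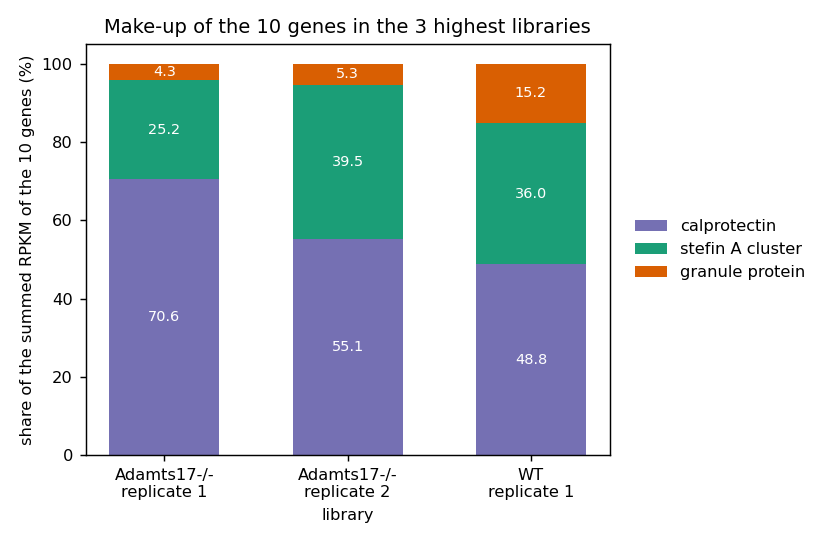
Share of the summed RPKM of the 10 genes, in percent, taken by calprotectin, the stefin A cluster and the granule proteins in Adamts17-/- replicates 1 and 2 and in WT replicate 1. The granule share is 15.2% in WT replicate 1 and 4.29% and 5.35% in the Adamts17-/- libraries, and the other 3 libraries, with sums of 16 to 223 RPKM, are not drawn.

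Between the genotypes, all 10 genes had a log2 fold change above 0 (Adamts17-/- over WT, on the log2(RPKM + 1) scale, which understates the change of low genes). The same held for 52.8% of the 9128 genes tested. The rule that chose the genes used these libraries, so nothing is read from the count. The median over the 10 was 3.14, beside 0.08 over all tested genes. S100a8 had a log2 fold change of 3.27 ± 1.44 (SE, n = 3 per group), S100a9 of 3.00 ± 2.18, Gm5483 of 3.52 ± 1.89 and Camp of 2.23 ± 1.88. Stfa3 had the largest value, 4.44 ± 2.06, and Ngp the smallest, 1.14 ± 2.09. All 10 genes passed the filter of at least 1 RPKM in at least 3 libraries. In limma's test with Benjamini-Hochberg adjustment, 0 of the 9128 genes were called in either direction (0.0%), the 10 included, and 229 had an unadjusted p under 0.05. None of the 10 genes had all Adamts17-/- libraries above all WT libraries, or all below, as 3.09% and 3.54% of the tested genes did.

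The size of the difference, and its sign in 5 of the genes, changed without Adamts17-/- replicate 2. Without that library 5 of the 10 genes had a log2 fold change above 0 (S100a8, Gm5483, Stfa1, BC100530 and Stfa3) and 5 below 0, against 50.6% of tested genes above 0. The median was then 0.27, beside 0.02 over all tested genes. The filter was applied to all 6 libraries before any was left out. Stfa1, Stfa3, BC100530 and Ltf reached 1 RPKM in 3 libraries, so they passed it only through the library left out here. S100a8 was at 0.98 ± 1.34 (SE, 2 Adamts17-/- and 3 WT libraries), Stfa3 at 1.52 ± 2.04, S100a9 at -0.13 ± 2.02, Camp at -0.28 ± 1.88 and Ngp at -2.24 ± 1.80. Each SE was larger than its value apart from that of Ngp, and none of the genes was called. The 4 stefins and S100a8 were above 0, and the 4 granule genes and S100a9 below 0, and no difference between these groups of genes was tested. In the 5 libraries left, Adamts17-/- replicate 1 and WT replicate 1 carried nearly all reads of the 10 genes. WT replicate 1 was above Adamts17-/- replicate 1 for S100a8, Stfa1, BC100530 and Gm5483 (1.67, 1.56, 2.05 and 1.72 times), against their signs. For S100a9 it was at 0.458 times, also against the sign, while Stfa3 (0.625 times) and the granule genes went with theirs. Stfa1 and BC100530 had values in these 2 libraries alone. Their sign thus comes from 1 value averaged over 2 Adamts17-/- libraries against 1 over 3 WT libraries.

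Other single libraries moved the values too. Without Adamts17-/- replicate 3, which listed 6 of the 10 genes at 0, the median was 5.73, and all 10 genes were above 0, as were 54.4% of tested genes. In that fit 5 of 9128 genes were called higher (0.0548%), and they were S100a9, Stfa1, Stfa3, BC100530 and Gm5483. Their log2 fold changes were 7.24 ± 1.25, 7.55 ± 1.52, 7.84 ± 1.54, 7.13 ± 1.56 and 6.34 ± 1.38 in that order (SE, 2 Adamts17-/- and 3 WT libraries). This result was known when the genes were chosen. Without WT replicate 1 the median was 4.85, and without WT replicate 3, which listed 7 of the 10 at 0, it was 1.09. With both Adamts17-/- replicate 2 and WT replicate 1 left out, an alternative added after seeing the data, the median was 2.14, and all 10 genes were above 0.

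**Figure D4:**
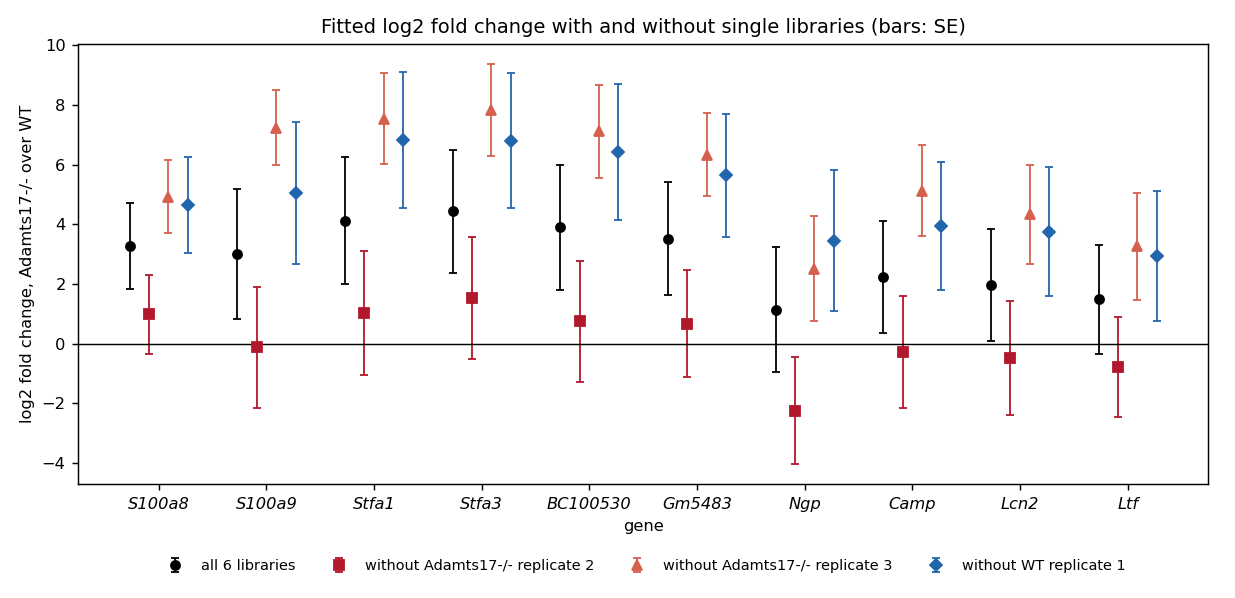
Fitted log2 fold change (Adamts17-/- over WT) of each gene with all 6 libraries and without Adamts17-/- replicate 2, Adamts17-/- replicate 3 or WT replicate 1, with bars for the SE. Without Adamts17-/- replicate 2, 5 of the 10 values lie below 0, and without Adamts17-/- replicate 3 the values run from 2.52 to 7.84.

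As levels, all 10 genes were highest in Adamts17-/- replicate 2, as were 26.7% of tested genes. In 7 of the 10 that library exceeded the next highest by over 10 times, against 1.27% of tested genes, and in 5 of the 10 by over 20 times, against 0.318%. The next highest library was WT replicate 1 for 8 of the 10 genes, against 15.4% of tested genes, and Adamts17-/- replicate 1 for S100a9 and Stfa3, against 21.1%. The genes had been picked for this pattern, so the shares describe it and do not test it. Pearson's r of log2(RPKM + 1) over the 6 libraries ran from 0.692 (S100a9 with Ngp) to 0.998 (Stfa1 with BC100530) over the 45 pairs, with a median of 0.949. Over the 5 libraries without Adamts17-/- replicate 2 it ran from 0.400 to 0.999, with a median of 0.890. The 6 points share 1 library far above the rest and the libraries' depth. Stfa1 and BC100530 also share stretches of sequence, so their values may not be independent.

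Beyond the 10 genes, those most like their mean in pattern over the 6 libraries were Arhgap17, Psme1, Dpp3, Ppil3, Zfp334, Xpc, Klhdc2, Snrpd1, Dr1 and Egln1, with r from 0.990 to 0.996. Psme1, a subunit of the proteasome activator, was at 16.9, 155 and 0 RPKM in Adamts17-/- replicates 1, 2 and 3, and at 22.6, 1.30 and 0 RPKM in WT replicates 1, 2 and 3. The likeness is one of order and spacing, since the levels were far lower than those of calprotectin. Of 9118 tested genes outside the 10, 153 (1.68%) had an r over 0.95. Over the 5 libraries without Adamts17-/- replicate 2 the most alike were Gng11, Fam109b, Abcd3, Cox10 and Dpp3, with r from 0.996 to 0.998. Dpp3, a dipeptidyl peptidase, was in both sets.

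Genes of other neutrophil stages, with the 10 left out, were divided. Retnlg, a resistin-like protein of mature mouse neutrophils, was at 3.60, 1073 and 0 RPKM in Adamts17-/- replicates 1, 2 and 3, and at 5.76, 0 and 0 RPKM in WT replicates 1, 2 and 3. Wfdc21, another gene of mature neutrophils, was at 6.67, 395 and 0 RPKM in Adamts17-/- and at 29.6, 0 and 0 RPKM in WT. Cxcr2, the chemokine receptor by which neutrophils leave the marrow, was at 88.7, 55.6 and 129 RPKM in Adamts17-/- and at 28.4, 130 and 109 RPKM in WT. Retnlg and Wfdc21 had the pattern of the stefins, whereas Cxcr2 was spread over the libraries and was not highest in Adamts17-/- replicate 2. Of the 13 mature neutrophil genes in the table, 9 were highest in that library. All 5 that passed the filter had a log2 fold change above 0, and 4 of 5 did without Adamts17-/- replicate 2, with none called and medians of 2.21 and 0.18.

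The azurophil list, which marks the earliest granules, had 4 genes in the table, and none passed the filter. Prtn3, proteinase 3, was at 112 RPKM in Adamts17-/- replicate 2 and was listed at 0 in the other 5 libraries. Serpinb1a, an inhibitor of neutrophil elastase, was at 0.457, 72.3 and 0 RPKM in Adamts17-/- replicates 1, 2 and 3, and at 3.65, 0.774 and 0 RPKM in WT replicates 1, 2 and 3. Ms4a3, a membrane protein of granulocyte precursors, was at 0, 71.3 and 0.777 RPKM in Adamts17-/- and at 2.08, 0 and 0 RPKM in WT. All 3 were highest in the library in which the 10 genes were highest. The remaining gene, Prss57, a serine protease of these granules named after its values were seen, was at 0.837, 0.177 and 0 RPKM in Adamts17-/- and at 0.390, 0.158 and 0.0867 RPKM in WT, and was not highest there.

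Among 8 other specific granule and transition proteins in the table, 5 passed the filter, 3 above 0 and 2 below, with a median of 0.49. Without Adamts17-/- replicate 2 it was 1 above and 4 below, with a median of -1.16. Anxa1, annexin A1, was at 39.1, 1015 and 0 RPKM in Adamts17-/- replicates 1, 2 and 3, and at 119, 14.6 and 275 RPKM in WT replicates 1, 2 and 3. Lyz2, the lysozyme of myeloid cells, was at 0, 338 and 0.0742 RPKM in Adamts17-/- and at 65.1, 13.2 and 0 RPKM in WT. Hp, haptoglobin, was at 2.89, 202 and 0 RPKM in Adamts17-/- and at 25.8, 0.316 and 0.941 RPKM in WT. Hp kept the order of Lcn2 and Ltf in its 3 highest libraries, and Lyz2, like Ngp, was listed at 0 in Adamts17-/- replicate 1, while Anxa1 was second highest in WT replicate 3. For gelatinase and secretory granules, 8 genes were in the table and 4 passed the filter, 3 above 0 and 1 below, with a median of 0.93. Without Adamts17-/- replicate 2 it was 1 above and 3 below, with a median of -0.57. Of the 8 genes 5 were highest in that library, 2 of them by over 10 times. Mmp8, neutrophil collagenase, was at 44.4, 185 and 104 RPKM in Adamts17-/- and at 29.3, 105 and 0.793 RPKM in WT. Fpr2, a formyl peptide receptor, was at 0, 85.7 and 0 RPKM in Adamts17-/- and at 19.4, 0.246 and 0.0693 RPKM in WT. Fpr2 was low outside Adamts17-/- replicate 2 and WT replicate 1, and Mmp8 was spread over 5 libraries. Mmp9, gelatinase B, which osteoclasts at this junction also make, was at 61.7, 303 and 423 RPKM in Adamts17-/- and at 1793, 77.8 and 1279 RPKM in WT. Mmp9 was highest in WT replicate 1 and next in WT replicate 3, where the sum of the 10 genes was lowest.

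Genes related to calprotectin and the stefins, or acting with them, were set beside the 10. Of 10 other S100 genes, all tested, 5 were above 0 and 5 below with all libraries and again without Adamts17-/- replicate 2, with medians of -0.005 and 0.006. S100a10, an annexin partner, was at 416, 293 and 425 RPKM in Adamts17-/- replicates 1, 2 and 3, and at 155, 666 and 834 RPKM in WT replicates 1, 2 and 3. S100a10 was not raised in the library in which S100a8 was highest. In that library 4 of the 10 other S100 genes were highest, none by over 10 times, beside 26.7% of tested genes highest there. Of 8 cysteine cathepsins and related proteases, the targets of the stefins among them, 2 were above 0 and 6 below, with a median of -0.24, and 1 and 7 without Adamts17-/- replicate 2, with a median of -0.98. Ctsk, the cathepsin of osteoclasts, was at 16.6, 78.0 and 758 RPKM in Adamts17-/- and at 1299, 97.4 and 1222 RPKM in WT. Of 9 receptor genes 4 were tested, 2 above and 2 below. Ager, the receptor RAGE that binds S100 proteins, was at 2.86, 0.0216 and 0 RPKM in Adamts17-/- and at 8.03, 37.8 and 0.137 RPKM in WT. None of these genes was called.

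The list of other stefins and cystatins had 9 genes in the table and 6 tested, with 5 above 0 and 1 below, and 3 and 3 without Adamts17-/- replicate 2. Cst3, cystatin C, which most cells secrete, was at 149, 472 and 338 RPKM in Adamts17-/- replicates 1, 2 and 3, and at 268, 161 and 845 RPKM in WT replicates 1, 2 and 3. Cst3 was highest in WT replicate 3, where the sum of the 10 genes was lowest. The table held 8 granulocyte transcription factors, of which 2 were tested and both were above 0. Cebpd, a C/EBP factor, was at 0.861, 29.1 and 0.139 RPKM in Adamts17-/- and at 2.79, 0 and 0 RPKM in WT. Runx1, a factor of all blood lineages and of cartilage, was at 15.1, 2.54 and 8.67 RPKM in Adamts17-/- and at 4.53, 4.8 and 2.57 RPKM in WT. Cebpd, which did not pass the filter, had the pattern of the 10 genes and Runx1 did not. Of the 8 factors 4 were highest in Adamts17-/- replicate 2, beside 26.7% of tested genes. Cebpa, another C/EBP factor, named after its values were seen, was listed at 0 in that library. It was highest in WT replicate 3, at 3.70 RPKM.

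Markers of other cells were followed over the same libraries, and some lists shared the high of Adamts17-/- replicate 2 while others did not. Erythroid markers summed to 20112, 265488 and 3762 RPKM in Adamts17-/- replicates 1, 2 and 3, and to 3283, 69757 and 5601 RPKM in WT replicates 1, 2 and 3, and all 13 were highest in Adamts17-/- replicate 2. Among these markers, Hbb-b2 and Hbb-bt had the same value in each library, so the sums and the count of 13 hold 1 signal under 2 names. The second highest library for red cell RNA was WT replicate 2, which had little S100a8. S100a8 came to 6.53%, 29.5% and 6.45% of the RPKM of Hba-a1, an alpha globin, in Adamts17-/-, and to 72.7%, 0.422% and 1.45% in WT. B cell markers summed to 37.9, 456 and 13.5 RPKM in Adamts17-/- and to 59.4, 13.3 and 2.20 RPKM in WT, with 4 of 6 highest in Adamts17-/- replicate 2. Vpreb1, part of the surrogate light chain of precursor B cells, was at 15.2, 220 and 0 RPKM in Adamts17-/- and at 11.4, 0 and 0 RPKM in WT. Of 8 monocyte and macrophage markers 4 were highest in that library, and they summed to 28.5, 229 and 132 RPKM in Adamts17-/- and to 169, 99.9 and 91.0 RPKM in WT. Prg2, the major basic protein of eosinophils, was at 1.16, 43.8 and 0.535 RPKM in Adamts17-/- and was listed at 0 in all 3 WT libraries. Of 3 eosinophil and mast cell markers, Prg2 among them, none passed the filter. Of these, 2 were highest in Adamts17-/- replicate 2, and Kit was highest in WT replicate 1. Pf4, platelet factor 4, was at 0, 104 and 0.133 RPKM in Adamts17-/- and at 47.0, 0 and 1.32 RPKM in WT. Of 4 megakaryocyte and platelet markers, Pf4 among them, 3 were highest in Adamts17-/- replicate 2, and Gp1bb was highest in WT replicate 1. Skeletal muscle markers summed to 444, 561 and 362 RPKM in Adamts17-/- and to 16693, 1534 and 258 RPKM in WT. WT replicate 1, second highest for 8 of the 10 genes, was thus first for muscle. Markers of hypertrophic chondrocytes summed to 3473, 5558 and 6577 RPKM in Adamts17-/- and to 4781, 16784 and 12792 RPKM in WT. The part of marrow, blood or muscle RNA in the levels of the 10 genes was not tested.

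**Figure D5:**
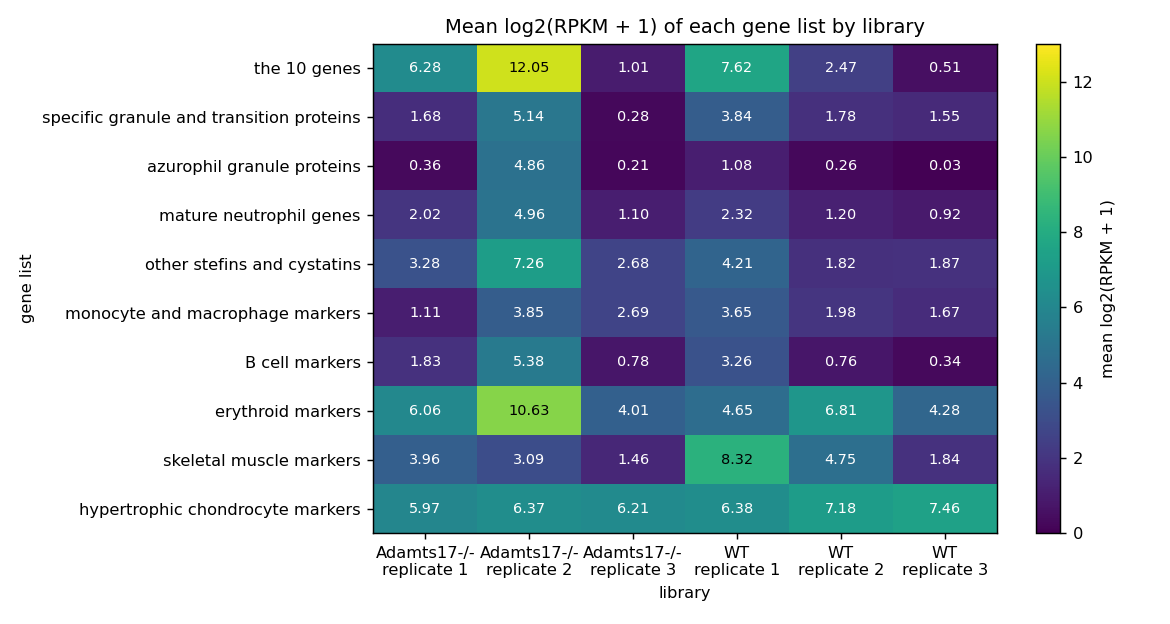
Mean log2(RPKM + 1) of the 10 genes and of 9 other gene lists (rows) in each library (columns, Adamts17-/- left of WT). The 10 genes run 6.28, 12.05 and 1.01 in Adamts17-/- replicates 1, 2 and 3 and 7.62, 2.47 and 0.51 in WT replicates 1, 2 and 3, and erythroid markers are also highest in Adamts17-/- replicate 2, at 10.63.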

How the data were processed

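Zones were cut from frozen sections by laser microdissection, and the messenger RNA was linearly amplified before TruSeq library preparation, per the labels' protocols. The authors deposited 1 table of values for 6 libraries. The sources used here do not name their unit. RPKM was inferred for the deposited values, since value times transcript length fell on steps in each library, and the table's name says that TMM scaling was applied. The sources used here give no aligner, counting program or build. All 10 gene starts equal those of RefSeq on GRCm38.p6. Read equivalents were values divided by the library's step. Of those from 1 to 20, 24.1% to 34.4% were whole within 0.01, so no count model was fitted. The fit on log2(RPKM + 1) used limma 3.58.1 under R 4.3.3 (empirical Bayes with trend, two-sided, Benjamini-Hochberg threshold 0.05), and the fit was checked on simulated data. Tables, sequence searches and plots used Python 3.11.15 (pandas 2.3.3, numpy 2.4.6, matplotlib 3.10.9, scipy 1.17.1). The 10 genes and all lists were chosen with earlier results of these data known. Named genes were the 10, Adamts17, up to 3 of highest mean per list, those most alike in pattern, and any called. Alternatives were other pseudocounts, filters and scalings, each library left out in turn, a replicate block, library weights and no trend.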

Additional observations from a re-analysis of the deposited data

How the results depend on the processing

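Over 16 alternative settings, 144 of 160 fold changes of the 10 genes kept their direction and their side of the threshold. That count is no measure of robustness. The changed filters, the fit with no trend and the replicate block leave each log2 fold change as it was by construction. The smallest adjusted p of limma's main fit was 0.999, so a change of side was unlikely. In the other 16, 5 were newly called, all without Adamts17-/- replicate 3, and 11, in 6 genes, changed sign. Without Adamts17-/- replicate 2 the log2 fold change was -0.13 for S100a9, -2.24 for Ngp, -0.28 for Camp, -0.47 for Lcn2 and -0.77 for Ltf, and without WT replicate 3 it was -0.29 for Ngp. With library weights it was -0.10 for BC100530, -3.95 for Ngp, -0.37 for Camp, -1.02 for Lcn2 and -1.21 for Ltf, and the median of the 10 was -0.046. For the 6 genes that changed sign, the highest values with 1 library left out were 7.24 for S100a9, 7.13 for BC100530, 5.13 for Camp, 4.33 for Lcn2 and 3.26 for Ltf, all without Adamts17-/- replicate 3, and 3.46 for Ngp, without WT replicate 1. The cause was not tested. The median ran from 0.27 to 5.73 with 1 library left out and from 2.04 to 3.15 under the other scalings, pseudocounts and filters. The number of genes called ran from 0 to 5 with 1 library left out. It was 1 with library weights, Myl1, lower in Adamts17-/-, and 0 otherwise. With the replicate block 0 genes were called and the median was 3.14. Same-numbered libraries did not deviate together over the tested genes (correlations of -0.0075, -0.352 and -0.100). These values gave no sign that the numbers pair the libraries, but so few correlations cannot exclude a pairing. Depth limits the low libraries most: 1 read of S100a8 was worth 1.22 to 4.0 RPKM in Adamts17-/- and 0.893 to 3.25 RPKM in WT.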
